A study of Mus musculus with 6 samples.

Results

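The genes described are 10 members of the Notch pathway in Schwann cells (SCs): the receptors *Notch1*, *Notch2* and *Notch3*, the ligands *Jag1*, *Jag2* and *Dll1*, and the Hes and Hey target genes *Hes1*, *Hey1*, *Hey2* and *Heyl*. They were chosen by name and found by Ensembl identifier among the 55401 genes of the count table, where all 10 were present. All 10 were also among the 22318 genes that were tested, which needed 2 counts or more in 5 or more of the 6 libraries. Primary SCs had been cultured from adult mouse dorsal root ganglia, and poly(A) RNA of 3 WT and 3 Plxnb1-/- cultures was sequenced in bulk. *Plxnb1* encodes the semaphorin receptor Plexin-B1, and the mutant allele carries a transmembrane-lacZ-neo gene trap cassette in the *Plxnb1* locus of all cells, on a C57BL/6 background. The labels call the controls WT, whereas the study in general also used Plxnb1+/- littermates as controls, and the labels give neither the exact age nor whether a culture pooled several animals. Cultures of both genotypes were grown in medium with 2 µM forskolin, 10 nM neuregulin and 10% serum, depleted of fibroblasts with an antibody to Thy1, and taken at a stated purity above 80% at passages 3 to 5. This medium is that of the paper's methods for SC cultures, which also list ascorbic acid. The sample labels give genotype and replicate and name no treatment. The replicates are labelled as separate samples, and where they are not separate animals the p-values measure only the spread between these samples.

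Notch receptors are single-pass proteins that are activated by ligands of the Jagged and Delta families on a neighboring cell. Ligand binding exposes the receptor to cleavage by ADAM proteases and then by the γ-secretase complex, and the freed intracellular part enters the nucleus. There it binds the DNA-binding protein RBPJ and the coactivators of the Mastermind family and switches on target genes, of which the Hes and Hey transcriptional repressors are the best known. In the SC lineage, Notch signaling is known to promote the step from precursor to immature SC, to support proliferation and to oppose myelination. *Notch3* and *Heyl* are also well known in vascular smooth muscle cells and pericytes, together called mural cells.

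The promoter windows of *Hey2* and *Lfng*, which hold the RBPJ core motif TGGGAA, show what such sequence looks like in a target gene and in a gene that modifies the receptors. Windows from 250 bases before to 50 bases after each transcription start came from RefSeq (GRCm38.p6), and 7 of the 10 members had an entry, with 8 windows in all. *Hes1*, *Hey1* and *Heyl* had none. One of the 8 windows held the motif on either strand, that of *Hey2*. Among 32851 windows of all genes, 8397 (25.6%) held it. The *Hey2* stretch lies on the minus strand at chr10:30842781-30843033 and covers bases −250 to 3 from the start. The *Lfng* stretch lies on the plus strand at chr5:140607191-140607250 and covers bases −150 to −91. *Lfng* encodes Lunatic fringe, a glycosyltransferase that modifies Notch receptors. Capitals mark the motif, which reads TTCCCA where it is on the other strand.
Hey2: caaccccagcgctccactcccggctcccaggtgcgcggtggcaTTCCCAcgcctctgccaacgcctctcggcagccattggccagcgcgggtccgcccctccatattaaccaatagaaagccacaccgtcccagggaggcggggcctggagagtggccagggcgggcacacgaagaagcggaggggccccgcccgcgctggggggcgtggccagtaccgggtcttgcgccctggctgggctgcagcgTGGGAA
Lfng: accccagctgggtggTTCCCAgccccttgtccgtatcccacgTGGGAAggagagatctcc
In *Hey2* the motif stands at −207 to −202 in reverse and at −3 to 3 in the given direction, and in *Lfng* at −135 to −130 in reverse and at −108 to −103. A match is a string of letters and was not shown to be a binding site.

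The libraries held between 59252048 and 77280964 counts, so that 3 counts correspond to between 0.0383 and 0.0513 CPM (reads of a gene relative to library size, scaled by the TMM method). These floors cover counting error only. The disrupted gene itself stood at 61.8, 45.4 and 96.4 CPM in the WT cultures and at 13.1, 16.6 and 18.6 CPM in the Plxnb1-/- cultures, in the order of replicates 1, 2 and 3, which is kept for all values given by culture. *Plxnb1* was lower in every mutant culture, with a log2 fold change of −2.08 (SE 0.25) and an adjusted p of 0.0449 by edgeR's quasi-likelihood test. WT replicate 2 stood apart on the first principal component, at −47.4, while the other 5 libraries lay between −7.52 and 34.0. For the results that moved most without it, the value without it is also given. The 8 SC markers were all present. *Sox10*, the transcription factor that defines the lineage, lay between 432 and 580 CPM, and *S100b*, a common SC marker, between 7.09 and 8.22 CPM. *Col1a1*, a collagen gene used here as a fibroblast marker, lay between 4906 and 7095 CPM. *Thy1*, the antigen used to remove fibroblasts, lay between 384 and 652 CPM. Which cells made this RNA was not tested. The paper reads *Col1a1* as a matrix gene with reduced expression in Plxnb1-/- SCs.

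In the cultures, 8 of the 10 genes lay well above the counting floor. Ordered by level per exon length (CPM per kb of exon, mean over the 6 cultures), *Jag1* was first at 56.7, followed by *Hes1* at 32.2, *Heyl* at 26.3, *Notch1* at 20.9, *Hey1* at 14.7, *Notch2* at 12.4, *Hey2* at 3.89 and *Notch3* at 2.85. *Dll1* and *Jag2* came last, both at 0.0442. Ranges over the 6 cultures did not overlap between *Jag1* and *Hes1*, between *Notch1* and *Hey1* (lowest *Notch1* value 15.33, highest *Hey1* value 15.32), between *Hey1* and *Notch2*, between *Notch2* and *Hey2*, or between *Notch3* and *Dll1*. They overlapped between *Hes1* and *Heyl*, between *Heyl* and *Notch1*, between *Hey2* and *Notch3*, and between *Dll1* and *Jag2*, so the order within these pairs is not set beyond the spread of the cultures.

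**Figure D1:**
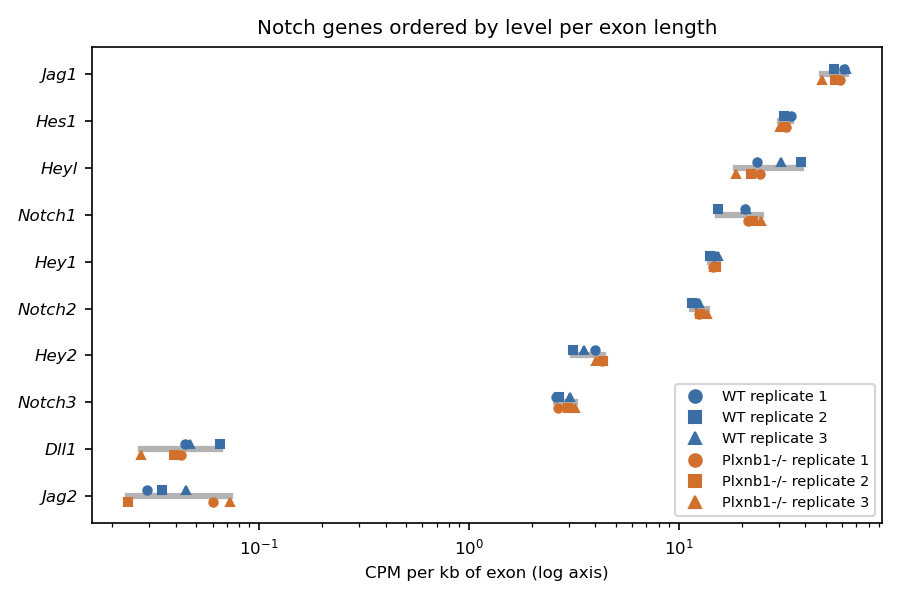
Level of each Notch gene as CPM per kb of exon on a log axis, with 1 point per culture and a gray bar from the lowest to the highest of the 6 cultures. *Jag1* lies highest, between 47.9 and 62.5, and *Dll1* and *Jag2* lie lowest, all below 0.0725.

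By edgeR, 0 of the 10 genes were called, which took an adjusted p below 0.05 together with a log2 fold change beyond 0.25 in either direction. Their adjusted p-values ran from 0.289 to 0.997. Over all tested genes the same rule called 8 (0.0358%), 1 higher and 7 lower in Plxnb1-/- cultures, while 3063 had an unadjusted p below 0.05. DESeq2 also called 0 of the 10, against 335 of all tested genes (1.50%). At an unadjusted p below 0.05 by edgeR, 2 of the 10 were higher (*Notch1* and *Hey2*), against 6.95% of all tested genes, and 1 was lower (*Heyl*), against 6.78%. The CPM ranges of the genotypes did not overlap for 3 genes that were higher (*Notch1*, *Notch2* and *Hey2*), against 9.30% of all tested genes, and for 1 that was lower (*Dll1*), against 10.4%. In all, 6 fold changes were positive and 4 negative, with a median log2 fold change of 0.05, and the median over all tested genes was 0.00.

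Among the receptors, all 3 fold changes were positive and none passed the test. *Notch1* (ENSMUSG00000026923, GRCm38 chr2:26457903-26516663, minus strand), a receptor known from SC development, had 293, 218 and 297 CPM in the WT cultures and 303, 321 and 351 CPM in the Plxnb1-/- cultures. Every mutant value was above every WT value, WT replicate 2 was the lowest, and WT replicate 3 and Plxnb1-/- replicate 1 lay close together. The mean was 269 ± 44.4 CPM in WT and 325 ± 24.2 CPM in Plxnb1-/- cultures (SD, n = 3 each), a log2 fold change of 0.27 (SE 0.11, 95% interval 0.02 to 0.52; edgeR adjusted p = 0.342). Without WT replicate 2 the log2 fold change of *Notch1* was 0.14 (edgeR unadjusted p = 0.0354, adjusted p = 0.529). Of its exon length, 10.4% overlaps genes on the opposite strand (*0610009E02Rik* and *Gm13568*), and since the strand setting of the counting is not given in the sources used here, reads of that stretch cannot be assigned to one gene.

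*Notch2* (ENSMUSG00000027878, chr3:98013527-98150361, plus strand), a second widely expressed receptor, had 130, 124 and 134 CPM in WT and 135, 136 and 147 CPM in Plxnb1-/- cultures. The ranges did not overlap, but they all but touched between WT replicate 3 and Plxnb1-/- replicate 1, and with upper-quartile scaling they overlapped (134.0 CPM in both of these cultures). The log2 fold change was 0.11 (SE 0.05, interval −0.01 to 0.22; edgeR adjusted p = 0.383), and a rise of more than 0.22 lies outside the interval. *Gm42820*, on the same strand, overlaps 5.02% of its exon length.

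*Notch3* (ENSMUSG00000038146, chr17:32120820-32166852, minus strand) had 20.9, 21.6 and 24.4 CPM in WT and 21.4, 24.0 and 26.0 CPM in Plxnb1-/- cultures, with values of both genotypes interleaved. The log2 fold change was 0.09 (SE 0.09, interval −0.10 to 0.28; edgeR adjusted p = 0.677), and ran from 0.02 to 0.16 with each culture left out in turn. On the opposite strand, *Gm17276* overlaps 6.03% of its exon length.

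The make-up of the receptor pool was compared as the share of each receptor in their summed counts per kb, which does not depend on scaling between libraries. *Notch1* took 58.5, 52.0 and 57.5% of the pool in WT cultures and 58.4, 59.2 and 59.4% in Plxnb1-/- cultures, so its share was lowest in WT replicate 2. The difference in the mean share of *Notch1* was 3.02 percentage points, with a p of 0.2 by a two-sided exact permutation test (n = 3 each), whose smallest possible p is 0.1. Without WT replicate 2 it was 1.01 points. *Notch2* took 35.8 ± 2.77% in WT and 33.4 ± 0.805% in Plxnb1-/- cultures, and *Notch3* 8.25 ± 0.862% and 7.60 ± 0.295% (exact p = 0.3 for both). The order *Notch1*, *Notch2*, *Notch3* held in all 6 cultures.

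**Figure D2:**
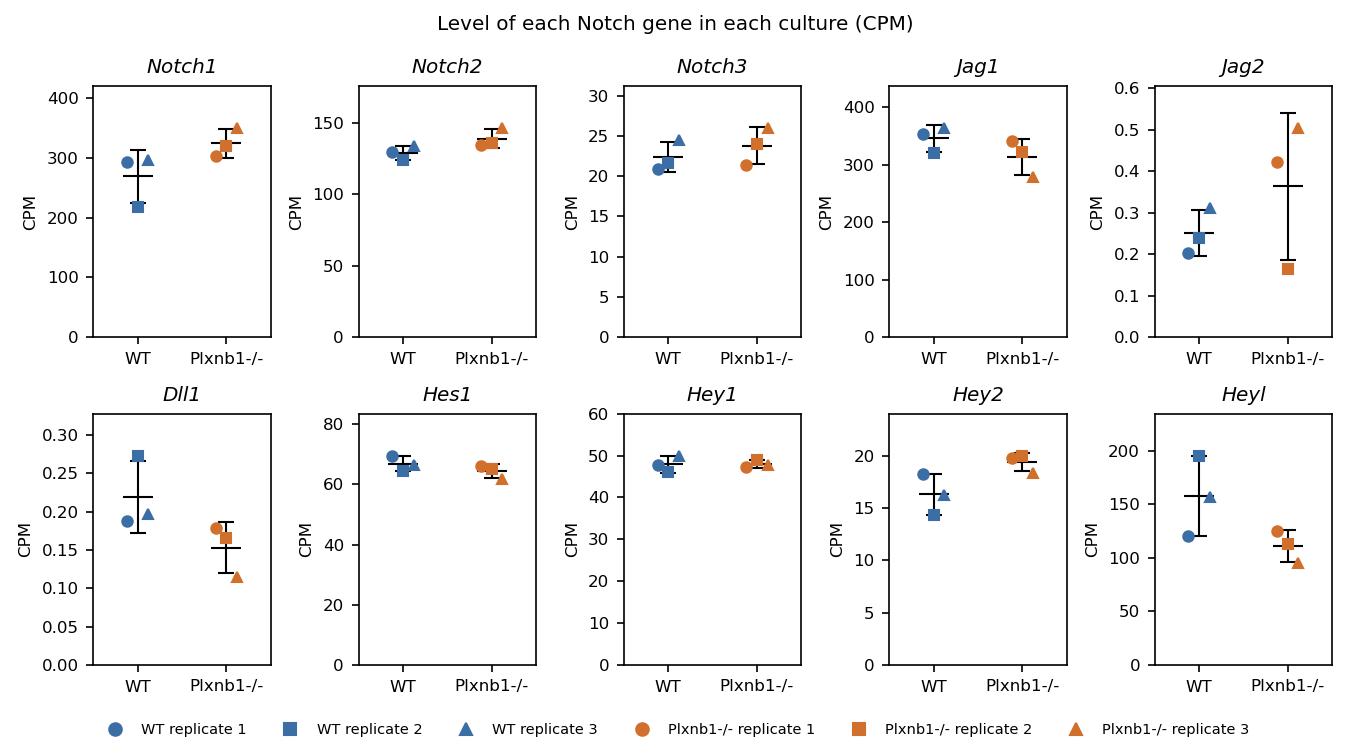
CPM of the 10 Notch genes, 1 panel per gene with its own axis from 0. Each point is a culture, and black lines give the mean and SD of 3 cultures per genotype. Points of the genotypes separate for *Notch1*, *Notch2*, *Hey2* and *Dll1*, and WT replicate 2 is the lowest culture for *Notch1* (218 CPM) and the highest for *Heyl* (196 CPM).

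Among the ligands, *Jag1* was the only one with more than trace levels. *Jag1* (ENSMUSG00000027276, chr2:137081456-137116644, minus strand), which encodes the membrane ligand Jagged1, had 354, 320 and 364 CPM in WT and 341, 322 and 279 CPM in Plxnb1-/- cultures. The genotypes overlapped, and Plxnb1-/- replicate 3 was the lowest. The mean was 346 ± 23.1 CPM in WT and 314 ± 31.7 CPM in Plxnb1-/- cultures, a log2 fold change of −0.14 (SE 0.08, interval −0.32 to 0.03; edgeR adjusted p = 0.454). Without Plxnb1-/- replicate 3 it was −0.06. Without Plxnb1-/- replicate 1 it was −0.21 (edgeR unadjusted p = 0.0322, adjusted p = 0.356). Without WT replicate 2 it was −0.19 (edgeR unadjusted p = 0.0333, adjusted p = 0.523), and the ranges of the genotypes then did not overlap.

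*Jag2* (ENSMUSG00000002799, chr12:112907819-112929776, minus strand), a second Jagged ligand, had 0.203, 0.239 and 0.311 CPM in WT and 0.422, 0.166 and 0.505 CPM in Plxnb1-/- cultures, from 12 to 35 counts. Both the lowest and the highest value were in mutant cultures. The 95% interval of the log2 fold change ran from −0.42 to 1.47, so at this depth neither a rise nor a fall was detectable. *Dll1* (ENSMUSG00000014773, chr17:15367354-15376872, minus strand), the Delta-like ligand of the set, had 0.188, 0.273 and 0.198 CPM in WT and 0.179, 0.166 and 0.115 CPM in Plxnb1-/- cultures. All 3 mutant values were lower, but they stood on 8 to 16 counts a library, and the interval of the log2 fold change of −0.50 (−0.32 without WT replicate 2) ran from −1.32 to 0.32 (edgeR adjusted p = 0.567). On the opposite strand, *A930024N18Rik* overlaps 20.5% of the *Dll1* exons.

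The 4 target genes had 2 positive and 2 negative fold changes, and none passed the test. *Hes1* (ENSMUSG00000022528, chr16:30064384-30067796, plus strand), the canonical Hes repressor, had 69.5, 64.5 and 66.5 CPM in WT and 66.2, 65.2 and 61.7 CPM in Plxnb1-/- cultures. The genotypes overlapped, and the log2 fold change was −0.05 (SE 0.05, interval −0.16 to 0.05; edgeR adjusted p = 0.639). *Hey1* (ENSMUSG00000040289, chr3:8663359-8667256, minus strand), a Hey repressor, had 47.8, 46.0 and 50.01 CPM in WT and 47.2, 49.0 and 47.8 CPM in Plxnb1-/- cultures, with a mean of 48.0 in both. Its log2 fold change was 0.00, with an interval from −0.10 to 0.11. The intervals of *Hes1* and *Hey1* were the narrowest of the set beside that of *Notch2*.

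*Hey2* (ENSMUSG00000019789, chr10:30832359-30842801, minus strand), whose promoter window is printed above, had 18.3, 14.4 and 16.3 CPM in WT and 19.8, 20.0 and 18.4 CPM in Plxnb1-/- cultures. The genotypes did not overlap, although WT replicate 1 and Plxnb1-/- replicate 3 nearly met. The log2 fold change was 0.25 (SE 0.09, interval 0.05 to 0.45, edgeR unadjusted p = 0.0180, adjusted p = 0.296). Without WT replicate 2 it was 0.17 (edgeR unadjusted p = 0.0443, adjusted p = 0.545).

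*Heyl* (ENSMUSG00000032744, chr4:123233556-123249875, plus strand), the third Hey gene, had 120, 196 and 157 CPM in WT and 125, 113 and 95.1 CPM in Plxnb1-/- cultures. The WT cultures spread most, and Plxnb1-/- replicate 1 was above WT replicate 1, so the genotypes overlapped. The mean of *Heyl* was 158 ± 37.6 CPM in WT and 111 ± 15.01 CPM in Plxnb1-/- cultures, a log2 fold change of −0.51 (SE 0.16, interval −0.87 to −0.15; edgeR unadjusted p = 0.0113, adjusted p = 0.289). Without WT replicate 2 it was −0.32 (edgeR unadjusted p = 0.0337, adjusted p = 0.524). *Hes1*, *Hey1*, *Hey2* and *Heyl* share no exon with another gene in the annotation used, and none of the 10 genes lies on chromosome 9 with *Plxnb1*.

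**Figure D3:**
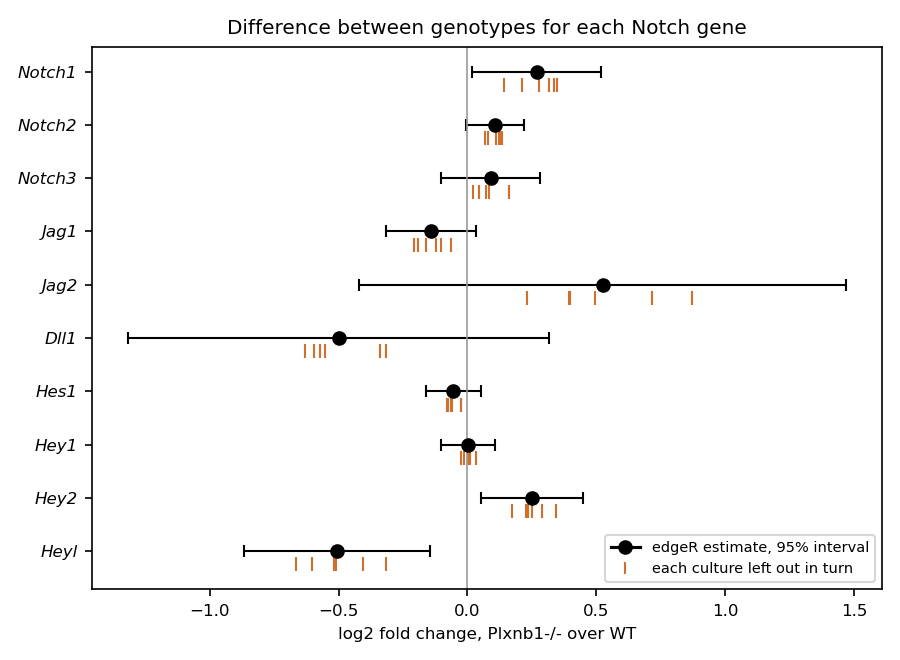
Log2 fold change of each Notch gene, Plxnb1-/- over WT, by edgeR. Black points and bars give the estimate and its 95% interval, and short orange lines give the estimate with each culture left out in turn. The intervals of *Notch1*, *Hey2* and *Heyl* lie off 0 before adjustment over all genes, and those of *Jag2* and *Dll1* are the widest.

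Within the target pool, *Heyl* took 30.8, 43.9 and 37.4% of the summed counts per kb in WT cultures and 32.3, 30.1 and 27.5% in Plxnb1-/- cultures. Its share was highest in WT replicates 2 and 3, and the difference of the means was −7.40 percentage points (two-sided exact permutation p = 0.2), or −4.14 without WT replicate 2. *Hey2* took 5.22, 3.59 and 4.30% in WT and 5.70, 5.94 and 5.93% in Plxnb1-/- cultures. These shares did not overlap, and the exact permutation p of 0.1 is the smallest this design can give. *Hes1* took 40.3 ± 4.23% in WT and 43.8 ± 0.979% in Plxnb1-/- cultures (exact p = 0.3), and *Hey1* 18.0 ± 1.60% and 20.4 ± 1.29% (exact p = 0.2). In all, 7 shares were compared, none of which could have passed 0.05 with 3 cultures a group.

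Marker genes of cell types differed between the cultures along with *Notch1* and *Heyl*. The summed level of the 8 SC markers was 2643, 2270 and 2705 CPM in WT and 2736, 3019 and 3087 CPM in Plxnb1-/- cultures, and the 6 cultures stood in the same order as for *Notch1*. The fold change was positive for 7 of these 8 markers, against 51.5% of all tested genes. At an unadjusted p below 0.05 by edgeR, 6 were higher, against 6.95% of all tested genes. By edgeR 0 were called and by DESeq2 0, against 0.0358% and 1.50%. Other lists came close to the order of *Notch1*. Satellite glia markers differed from it only in that Plxnb1-/- replicates 2 and 3 changed places. Neuron markers differed only in that WT replicates 1 and 3 did, and their order was that of the first principal component. The summed level of the 8 mural cell markers was 1865, 2489 and 2067 CPM in WT and 1814, 1810 and 1685 CPM in Plxnb1-/- cultures. This order matched that of *Heyl* except that WT replicate 1 and Plxnb1-/- replicate 1 changed places. *Notch3*, which was named above with *Heyl* for mural cells, did not follow it. Its highest value, 26.0 CPM, was in Plxnb1-/- replicate 3, where the mural sum was lowest, and its log2 fold change was 0.09. *Acta2*, which encodes smooth muscle actin and had the highest level of the mural list, lay between 822 and 1173 CPM in WT and between 668 and 757 CPM in Plxnb1-/- cultures (log2 fold change −0.42; edgeR adjusted p = 0.273, DESeq2 adjusted p = 0.0174). The mural list held 4 positive log2 fold changes (*Kcnj8* 0.12, *Abcc9* 0.12, *Rgs5* 0.07 and *Myh11* 0.21). The 4 negative ones were *Acta2*, *Cspg4* (−0.29), *Pdgfrb* (−0.13) and *Des* (−0.41). Most of the summed level came from *Acta2*, *Pdgfrb* and *Cspg4* (means over the 6 cultures 847, 615 and 380 CPM). The pericyte markers in the list ranged widely. *Kcnj8* lay between 1.76 and 3.14 CPM and *Abcc9* between 3.68 and 5.94 CPM. *Rgs5* lay between 83.9 and 106 CPM and *Cspg4* between 307 and 491 CPM.

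The 6 fibroblast markers summed to between 6462 and 8202 CPM in WT and between 5686 and 6012 CPM in Plxnb1-/- cultures, and WT replicate 2 was again the highest. Most of that sum was *Col1a1*, with a mean of 5639 CPM over the 6 cultures. Of the 6 markers, 5 had negative log2 fold changes, that of *Dcn* being −0.01, while *Lum* had 0.08. *Pdgfra* had −0.33, *Dpt* −0.39 and *Thy1* −0.39. DESeq2 called *Col1a1* lower (log2 fold change −0.30; adjusted p = 0.0263, and 0.273 by edgeR). Satellite glia markers, led by the potassium channel gene *Kcnj10*, summed to between 762 and 883 CPM in WT and between 906 and 933 CPM in Plxnb1-/- cultures, with 3 of 3 fold changes positive. Endothelial markers, led by *Cdh5*, summed to between 60.6 and 81.4 CPM in WT and between 63.9 and 69.3 CPM in mutant cultures. Macrophage markers, led by *Csf1r*, summed to between 25.5 and 28.7 CPM in WT and between 29.7 and 33.4 CPM in mutant cultures. Neuron markers, led by *Tubb3*, which is not limited to neurons, summed to between 131 and 147 CPM in WT and between 147 and 160 CPM in mutant cultures. At an unadjusted p below 0.05 by edgeR, 3 fibroblast and 3 mural markers were lower, against 6.78% of all tested genes. Higher at that threshold were 2 macrophage, 1 satellite glia, 1 endothelial and 0 neuron markers, against 6.95%. In none of the 7 lists was a marker at 0 or under 3 counts in every library. In bulk samples, fewer cells of a type and less RNA per cell cannot be told apart. The part of cell make-up in the values of *Notch1*, *Hey2* and *Heyl* was not tested.

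**Figure D4:**
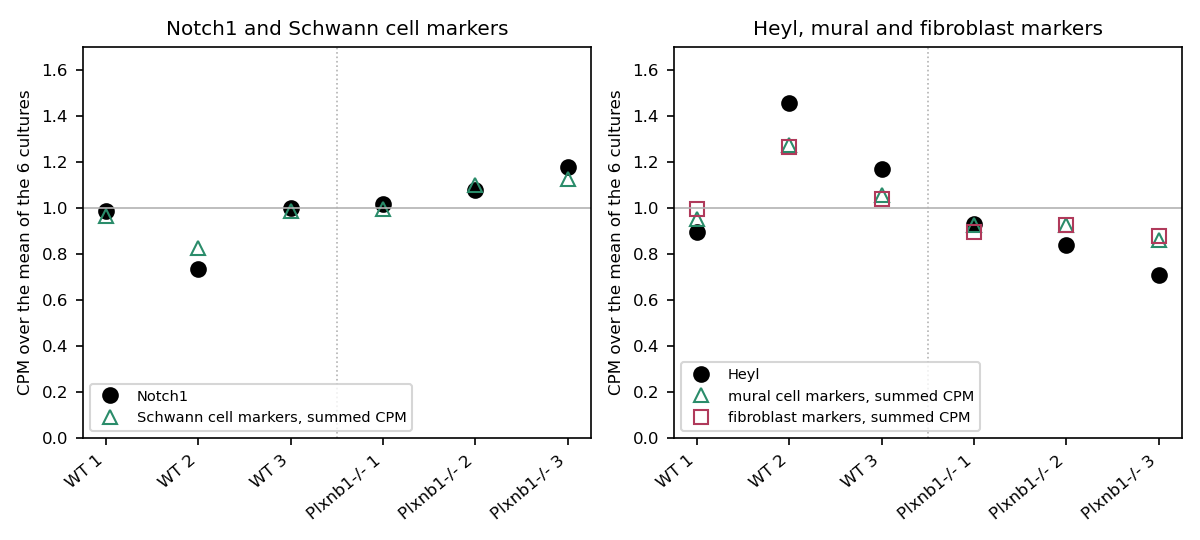
CPM in each culture divided by the mean of the 6 cultures. The left panel shows *Notch1* (black) and the sum of 8 SC markers, both lowest in WT replicate 2 and highest in Plxnb1-/- replicate 3, and the right panel shows *Heyl* (black) with the sums of 8 mural cell and 6 fibroblast markers, all highest in WT replicate 2. The fibroblast sum is mostly *Col1a1*, and the mural sum mostly *Acta2*, *Pdgfrb* and *Cspg4*.

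The other parts of the pathway were read from 58 further genes, of which 54 were tested. By edgeR 0 of the 54 were called in either direction, where the share over all tested genes was 0.0358%. At an unadjusted p below 0.05 by edgeR there were 8, of which 7 were higher and 1 lower. The shares over all tested genes were 6.95% and 6.78%. DESeq2 called 1 of the 54, higher in Plxnb1-/- cultures, against 1.50% of all tested genes. Ranges did not overlap for 12 of the 54 that were higher, against 9.30% of all tested genes, and for 3 that were lower, against 10.4%. Fold changes were positive for 38 and negative for 16 of the 54, with a median log2 fold change of 0.05, and 51.5% of all tested genes were positive. The untested genes were *Dll3*, *Hes2*, *Hes3* and *Hes5*, each with at most 4 counts in any library. *Hes5*, a classical Notch target in neural progenitors, was thus at or under the counting floor throughout.

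*Notch4*, the remaining receptor, is best known from endothelium. It had 58.9, 51.9 and 60.2 CPM in WT and 66.7, 66.9 and 67.3 CPM in Plxnb1-/- cultures. All mutant cultures were higher and lay close together, with a log2 fold change of 0.23 (SE 0.06; edgeR adjusted p = 0.273). DESeq2 gave an adjusted p of 0.0423 for *Notch4*, but its fold change was under the 0.25 needed for a call. *Dlk1*, a non-canonical ligand, had a log2 fold change of 0.17 (SE 0.19), which was 0.01 without WT replicate 2, and *Dll4*, an endothelial Delta ligand, lay between 0.332 and 0.769 CPM in the 6 cultures.

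Of the 5 glycosyltransferase genes that modify the receptors, *Lfng* had 62.6, 50.2 and 57.7 CPM in WT and 66.2, 67.1 and 64.7 CPM in Plxnb1-/- cultures. The ranges did not overlap, and WT replicate 2 was again lowest (log2 fold change 0.21, SE 0.07; edgeR adjusted p = 0.294; 0.14 without that culture). *Pofut1*, which adds the fucose that fringe enzymes extend, had a log2 fold change of 0.01 (SE 0.04). Of the 10 genes of receptor cleavage, *Aph1b*, a γ-secretase subunit, had the largest positive value at 0.24 (SE 0.07; edgeR adjusted p = 0.273), *Adam10*, the main protease of the outer cut, had 0.19 (SE 0.08; adjusted p = 0.348; 0.10 without WT replicate 2), and *Furin*, which processes the receptor on its way to the surface, had the most negative value at −0.10 (SE 0.04; adjusted p = 0.364). *Adam10* lay between 467 and 594 CPM in WT and between 606 and 638 CPM in mutant cultures. Both *Aph1b* (chr9:66775202-66795490) and *Adam10* (chr9:70678997-70780229) lie on chromosome 9 with *Plxnb1* (chr9:109095389-109119917), as do other genes of the wider list. These others were *Nedd4* (log2 fold change −0.04), *Tle3* (0.10), *Maml2* (0.12) and *Aph1c* (0.13), each with an unadjusted p above 0.05 by edgeR.

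For ligand endocytosis, which ligands need to activate a receptor on the next cell, 0 of 6 genes had an unadjusted p below 0.05. Values ranged from −0.23 for *Neurl1a* to 0.40 for *Neurl1b*, both Neuralized-type ubiquitin ligases. *Neurl1b* was lowest in WT replicate 2, and without that culture its log2 fold change was 0.21. In the nuclear activator complex, *Rbpj* itself had 72.4, 84.3 and 69.2 CPM in WT and 73.8, 69.4 and 68.0 CPM in Plxnb1-/- cultures, which overlapped (log2 fold change −0.10, SE 0.07, and −0.0040 without WT replicate 2, the highest culture). The coactivators *Maml3* (0.17, SE 0.06) and *Ep300* (0.14, SE 0.05) had unadjusted p-values below 0.05 by edgeR and adjusted p-values of 0.308 and 0.302. Of the 8 corepressors, which act with RBPJ or with Hes proteins in repression, *Tle2* was the only gene called by DESeq2 in the whole pathway list. *Tle2*, a Groucho-type corepressor, had 11.3, 9.99 and 10.6 CPM in WT and 12.4, 14.3 and 13.5 CPM in Plxnb1-/- cultures (log2 fold change 0.33, SE 0.08; DESeq2 adjusted p = 0.0259, edgeR adjusted p = 0.266). *Hdac1*, at the other end, had −0.03 (SE 0.04).

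Genes of receptor trafficking and turnover ranged less. Among 9 of 10 with a mean of at least 1 CPM, the extremes were *Itch*, a ubiquitin ligase, at 0.08 (0.05 without WT replicate 2) and *Dtx4*, a Deltex ligase, at −0.09 (0.0016 without it), and 0 of the 10 had an unadjusted p below 0.05. Among the other targets, *Nrarp*, a feedback inhibitor of the receptor, had 9.33, 7.36 and 8.40 CPM in WT and 9.32, 9.08 and 10.6 CPM in Plxnb1-/- cultures, with overlap between the genotypes (log2 fold change 0.21, SE 0.10; edgeR adjusted p = 0.406; 0.13 without WT replicate 2). *Gm38287*, on the opposite strand, overlaps 79.4% of its exon length, which makes the count of *Nrarp* uncertain. *Hes6*, a Hes relative, had a log2 fold change of 0.01 (SE 0.08).

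**Figure D5:**
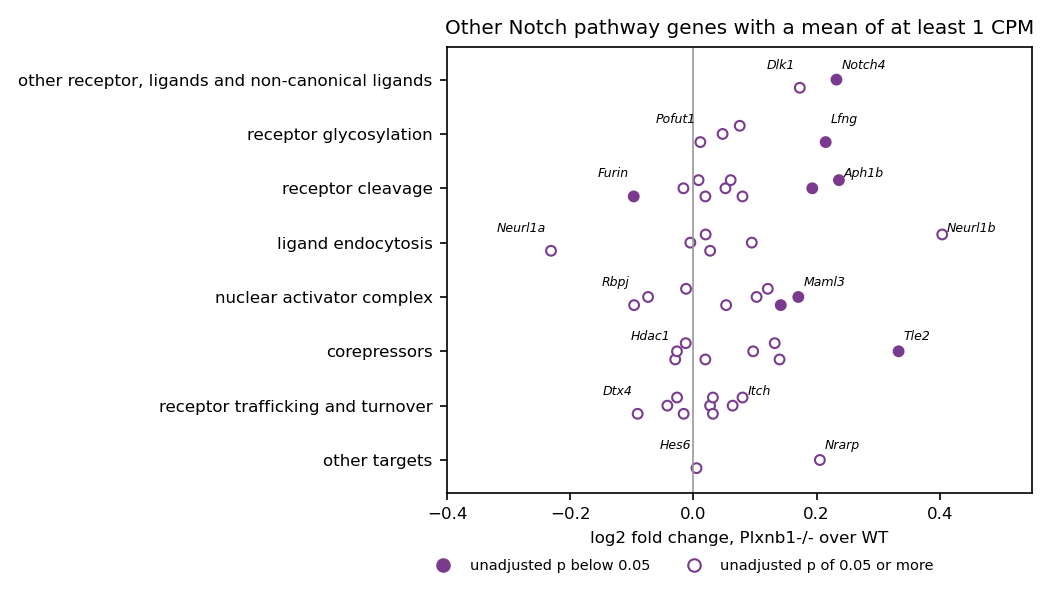
Log2 fold change by edgeR, Plxnb1-/- over WT, of the 48 other Notch pathway genes with a mean of at least 1 CPM, 1 row per function. Filled points have an unadjusted p below 0.05, and the highest and lowest gene of each row is named. The points run from −0.23 (*Neurl1a*) to 0.40 (*Neurl1b*, which was 0.21 without WT replicate 2).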

How the data were processed

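RNA-seq counts of 3 WT and 3 Plxnb1-/- SC cultures were grouped by the genotype in the labels. According to the submitters' processing notes and the paper's methods, the authors trimmed reads with Trim Galore 0.6.5, aligned them to mm10 with Bowtie2 2.4.1, which does not span introns, so that reads across exon junctions may be missed, removed duplicates with SAMtools 1.10 and counted reads on exons with featureCounts. The deposited counts were not normalized. The deposited FPKM values used the span of the gene as its length in 99.5% of 16335 genes compared, and served only as an alternative.

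Here, edgeR 4.0.16 in R 4.3.3 compared the genotypes by its quasi-likelihood test after TMM scaling, with no other term, over genes with 2 counts or more in 5 or more libraries, with Benjamini-Hochberg adjustment over all 22318 tested genes. Intervals are 95% intervals from the moderated degrees of freedom. DESeq2 1.42.0, limma 3.58.1 on log2(FPKM + 0.1) and log2(FPKM + 1), other scalings, other filters, a replicate term and the omission of each library were alternatives. The omission of libraries from the shares, and of WT replicate 2 from single genes of the wider pathway, was chosen after seeing the data. The scripts were tested on simulated data. Exact permutation tests used SciPy 1.17.1. Exon lengths, positions and symbols (55141 of 55401 genes matched) came from a GENCODE annotation of GRCm38 older than that of the authors. Total counts per library were between 59252048 and 77280964. No 2 libraries of a genotype agreed within counting noise.

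The members and the gene lists were chosen with earlier results of these data known. Beside *Plxnb1* and the members, the genes named are the extremes of each pathway list with a mean of at least 1 CPM, pathway genes with an unadjusted p below 0.05 or a call, and the most abundant marker of each list, of which that of the SC list is not reported here. *Sox10*, *S100b*, *Thy1*, the mural markers other than *Acta2*, the fibroblast markers other than *Col1a1*, *Dll4* and the untested genes were added after their values were seen. So were *Nedd4*, *Tle3*, *Maml2* and *Aph1c*.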

Additional observations from a re-analysis of the deposited data

How the results depend on the processing

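The number of Notch genes called was 0 in every setting tried, and the count with genotypes that did not overlap was 3 (upper-quartile scaling) to 5. The lowest adjusted p of a Notch gene in any setting was 0.05002, for *Heyl* without a filter on low counts. The directions of the 10 genes held in every setting except for *Hey1*, whose log2 fold change near 0 was −3.80e-05 by DESeq2, −0.00826 with upper-quartile factors, −0.0237 without WT replicate 2 and −0.0139 without Plxnb1-/- replicate 2 (−0.0237 to 0.0329 over all omissions of 1 library). The cause was not tested. Over those omissions the log2 fold change ran from 0.14 to 0.35 for *Notch1*, from 0.07 to 0.13 for *Notch2*, from 0.02 to 0.16 for *Notch3*, from −0.21 to −0.06 for *Jag1*, from 0.23 to 0.87 for *Jag2*, from −0.63 to −0.32 for *Dll1*, from −0.08 to −0.02 for *Hes1*, from 0.17 to 0.34 for *Hey2*, from −0.66 to −0.32 for *Heyl* and from 0.01 to 0.08 for the median of the 10 genes. *Notch1* and *Heyl* were nearest 0 without WT replicate 2. In that setting 4 of the 10 genes (*Notch1*, *Jag1*, *Hey2* and *Heyl*) had an unadjusted p below 0.05 by edgeR. Of all tested genes, 5.00% were then higher and 3.99% lower at that threshold.

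Over all tested genes 8 were called, but 335 by DESeq2, 296 of 31191 without a filter, 3 by limma with either pseudocount, and 4 to 25 with 1 library left out, the 25 without WT replicate 2, 5 without Plxnb1-/- replicate 1 and 4 without Plxnb1-/- replicate 2 or 3. The cause was not tested. Of the other Notch pathway genes 0 were called, but 1 by DESeq2 (*Tle2*). Without WT replicate 2, their median log2 fold change was 0.03 and 39 of 54 were positive, against 0.01 and 53.0% over all tested genes. At an unadjusted p below 0.05 by edgeR, 7 were then higher and 0 lower, against 5.00% and 3.99% of all tested genes. The direction turned for *Mib2* (0.00034), *Dtx1* (−0.0320), *Dtx3* (0.0305), *Dtx4* (0.0016) and *Aak1* (−0.0134). With each library left out, the difference in share ran from 1.01 to 4.26 percentage points for *Notch1*, from −3.19 to −0.775 for *Notch2*, from −1.09 to −0.235 for *Notch3*, from 1.55 to 5.76 for *Hes1*, from 1.49 to 3.05 for *Hey1*, from 1.09 to 1.91 for *Hey2* and from −10.7 to −4.14 for *Heyl*, all nearest 0 without WT replicate 2. With a replicate block, 5 genes were called and 0 Notch genes. The replicate numbers were not treated as pairs, since only the number is known to be shared. Same-numbered cultures correlated in their deviations from the group means at −0.02, 0.01 and 0.07, against −0.05 to 0.05 for the other combinations. With 3 cultures a group, these correlations cannot exclude that cultures were matched. With 3 cultures a group and trace counts, *Jag2* and *Dll1* are limited by depth.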
